A study of Anopheles gambiae with 60 samples.

Results

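The adult mosquito head was compared with the carcass, in females and in males, on whole-genome Affymetrix arrays of *Anopheles gambiae*. The comparison used 16 of the 60 arrays of a tissue atlas, chosen by their titles: 4 of female head, 4 of male head, 4 of female carcass and 4 of male carcass. The study's other arrays were of the salivary gland, midgut, Malpighian tubules and whole body in both sexes, and of the reproductive organs (ovary, testis, male accessory gland). Heads were severed at the neck, and held brain, eyes, cuticle and some fat body. The carcass was what remained of thorax and abdomen once the separately dissected organs had been taken out. Non-mated females had taken a blood meal, males were siblings dissected in parallel, and no group carried a genetic change. The labels give an age of 5 days for all. Per the study each array held RNA pooled from dissections 24, 48 and 72 h after the meal, amplified from 50 ng. Each array therefore stands for a pool of mosquitoes, and p-values rest on 4 such pools per group. The standard errors and p-values of the head to carcass difference over both sexes hold more than the spread among pools. That fit had no tissue by sex term, so they also take in any unlike tissue difference between females and males.

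The insect head houses the brain, the compound eyes and the antennae and mouthparts, and is known for photoreceptor, synaptic and chemosensory transcripts. Photoreceptors detect light with rhodopsins coupled to a G protein and a phospholipase, and arrestins end the response. The carcass holds the flight and leg muscles, rich in contractile proteins and mitochondria, and most of the fat body, which stores lipid and glycogen and makes the lipoproteins and, after a blood meal, the yolk proteins of the hemolymph. Both samples hold epidermis with cuticle, nervous tissue, some muscle and some fat body, so the comparison is between mixtures. In such mixtures, fewer cells of a type and less RNA per cell cannot be told apart.

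The array carries 22761 probe sets, here called probes, of which 16884 are *Anopheles* probes. Values are GCRMA intensities taken as log2, and a probe was counted as detected in a group when at least 3 of its 4 arrays reached log2 5, an intensity of 32. By this limit 1 or more of the 4 groups detected 4947 *Anopheles* probes, which were tested. The third-highest array of the dimmest probe inside the limit stood at 5.0006, and that of the brightest probe outside it at 4.9990. Within 0.1 of the limit, 115 probes lay inside and 125 outside. Single arrays detected 3875 to 4342 probes. Replicate arrays of a group correlated at r = 0.980 to 0.993 across all *Anopheles* probes and at 0.953 to 0.986 across those tested. Probes are not independent replicates. The authors had normalized each tissue on its own, both sexes together, so the level of head relative to carcass rests on 2 separate normalizations. The lowest value was nearly the same in both, with an intensity of 5.27 in head and 5.24 in carcass.

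Head and carcass shared most of the probes that either expressed. Of the 4947 probes, 3682 were detected in both tissues, 499 in head alone and 766 in carcass alone. The head arrays of females detected 3973 probes and those of males 3890, while the carcass arrays of females detected 3949 and those of males 4084. The median difference, head minus carcass, was -0.29 on the log2 scale over all probes tested, with a median standard error of 0.18. A probe was called where the tissue term of a linear model with sex as a covariate, fitted with limma, reached 1 on the log2 scale at a Benjamini-Hochberg adjusted p under 0.05.

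Fewer probes were higher in head than in carcass. In all, 734 of 4947 probes (14.8%) were called higher in head and 1258 (25.4%) higher in carcass, so that 40.3% were called in either direction and 2955 were not. Without regard to the model, all 8 head arrays lay above all 8 carcass arrays for 669 probes (13.5%), and all 8 carcass arrays above all 8 head arrays for 915 (18.5%). The balance between the directions depended on the scale. Head made up 36.8% of calls on the deposited values, 44.6% when the arrays were centred on their medians and 46.6% after quantile normalization of the 16 arrays, which moved the median difference to -0.14 and -0.05. No call turned direction under either, although 81.9% of carcass calls remained after quantile normalization, against 99.9% of head calls.

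**Figure D1:**
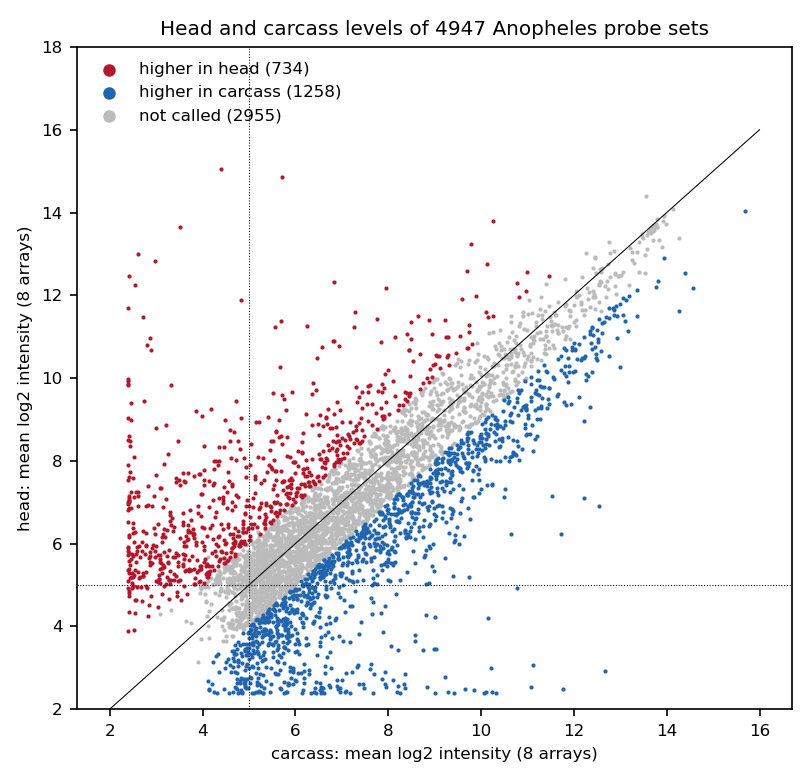
Mean log2 intensity in head (8 arrays, vertical axis) against carcass (8 arrays, horizontal axis) for the 4947 probes tested, each point a probe, with the detection limit of log2 5 dotted and equal levels on the solid line. The 734 probes higher in head include many near the carcass floor, while the 1258 higher in carcass lie mostly along the line at higher levels.

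The transcripts higher in head were fewer, and the median difference among them was larger than among those higher in carcass. It was 2.08 on the log2 scale, and 380 probes differed by at least 2, 185 by at least 3, 89 by at least 4 and 42 by at least 5. Their median level was 7.16 in head and 4.67 in carcass, and 78 of them reached 10 in head. Carcass did not detect 364 of the 734 (49.6%), and for 562 (76.6%) the 8 head arrays all lay above the 8 carcass arrays. Among the 1258 probes higher in carcass the median difference was -1.66, with 427 differing by at least 2, 147 by at least 3, 76 by at least 4 and 36 by at least 5. Their median level was 5.58 in head and 7.61 in carcass, and 230 reached 10 in carcass. Head did not detect 484 of these (38.5%), and for 775 (61.6%) the arrays of the tissues did not overlap. These sizes follow from the calls and are given as a description.

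Both ends of the scale held probes that were bright on every array of one tissue and near the floor on every array of the other. No table pairing probes with genes was used, so these are given by identifier, and the first part of each names the chromosome arm. The probe Ag.2L.287.0_CDS_a_at read 12.71, 13.14, 13.08 and 13.14 in female heads and 13.07, 12.72, 13.22 and 12.97 in male heads. In carcass it read 2.39 to 2.56 in females and 2.56 to 2.91 in males. Head exceeded carcass by 10.40 (SE 0.11, adjusted p = 1.45e-20), which against the detection limit is at least 257-fold. The probe Ag.3L.148.0_UTR_a_at read 13.16 to 14.04 over the 8 head arrays and 3.22 to 4.52 over the 8 carcass arrays, a difference of 10.13 (SE 0.18) and at least 402-fold. In the other direction, Ag.2R.354.16_a_at read 2.62 to 3.77 in female heads and 2.49 to 2.95 in male heads. Its carcass values were 12.59 to 12.86 in females and 12.06 to 13.11 in males, so head fell below carcass by 9.75 on the log2 scale (SE 0.18), at least 204-fold. The probe Ag.2R.402.0_CDS_a_at read 2.45 to 2.64 over all head arrays, against 10.85 to 11.02 in female and 12.37 to 12.87 in male carcass, at least 109-fold lower in head. For each of these 4 probes the 8 arrays of one tissue lay more than 8 log2 units from the 8 of the other.

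Each bound of this kind sets the undetected tissue at the higher of log2 5 and its own value on each array. A probe has no bound where the mean of the other tissue over both sexes did not exceed the level so set. AGAP006793, for example, has none, and the medians below leave such probes out. Among the 364 probes higher in head and not detected in carcass, those with a bound had a median of 2.05-fold, and the highest was 783-fold. Among the 484 probes higher in carcass and not detected in head, those with a bound had a median of 1.82-fold, and the highest was 204-fold. Most one-sided probes therefore lay only modestly above the detection limit in the tissue that had them.

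Gene identifiers could be given for 797 of the tested probes, through the relative abundance that the study listed for genes with a single orthologue in *Drosophila*. The route takes only genes with expression in several tissues, so it leaves out genes found in the head alone. Of these 797 genes, 94 (11.8%) were higher in head and 239 (30.0%) higher in carcass, with a median difference of -0.44. No source used here gives most of these identifiers a name or a function, and they are described by their values and by the study's cluster. Below, "the 15 genes" of a tissue are those with the largest difference among called genes whose arrays did not overlap between the tissues.

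The most head-enriched of these genes was AGAP010134. Its log2 level was 14.98, 15.04, 14.92 and 15.08 in female heads and 15.17, 15.07, 15.06 and 15.14 in male heads. Carcass gave 5.14, 2.81, 3.23 and 3.15 in females and 4.54, 4.44, 8.40 and 3.41 in males. The head values were among the brightest and tightest of the comparison, while 1 male carcass array stood well above the other 7. Head exceeded carcass by 10.66 (SE 0.55, adjusted p = 2.24e-11), at least 783-fold, and by 11.21 without that male carcass array. Outside head it was also measured at 10.36 in male salivary gland and 10.17 in testis, against 6.74 in female salivary gland and 2.37 in ovary, and the whole body gave 13.22 in females and 14.71 in males.

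AGAP009991 and AGAP002145 followed, both bright in every head array. AGAP009991 read 11.38, 11.25, 10.84 and 10.61 in female heads and 10.53, 10.53, 9.88 and 10.34 in male heads, against 2.64 to 2.80 in female and 2.80 to 3.35 in male carcass. The difference was 7.77 (SE 0.18), at least 50.9-fold, and the testis, at 9.82, was the only other dissected tissue above the limit. AGAP002145 read 11.21, 11.48, 11.99 and 12.21 in female heads and 12.01, 11.57, 12.35 and 12.30 in male heads. Its carcass values were 3.87, 3.63, 3.996 and 4.18 in females and 6.02, 5.24, 5.80 and 5.90 in males, so it was detected in male carcass only. Head exceeded carcass by 7.06 (SE 0.25, adjusted p = 1.21e-13). All other dissected tissues lay below the limit for this gene, at 2.41 to 4.66.

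The remaining 12 head genes had differences of 3.70 to 5.70, and in each the 8 head arrays lay above the 8 carcass arrays. AGAP006031 averaged 11.63 ± 0.15 in female and 11.13 ± 0.35 in male heads, against 5.47 ± 0.15 and 5.89 ± 0.11 in female and male carcass (SD, n = 4 each). AGAP002619 averaged 9.17 ± 0.37 and 8.57 ± 0.70 in female and male heads and was not detected in carcass, at 3.46 ± 0.28 and 2.96 ± 0.36, a difference of 5.66 (SE 0.21). A group made up of AGAP010881, AGAP010266, AGAP010260 and AGAP003509 averaged higher in males than in females within both tissues. AGAP010266, for example, averaged 8.48 in female and 9.59 in male heads, against 3.68 in female and 5.998 in male carcass. For these 4 genes the difference between the sexes in head minus carcass was 0.16 to 1.73 and did not pass the test, with adjusted p of 0.0637 to 0.898. AGAP009799, AGAP009953, AGAP001504, AGAP010281 and AGAP012518 complete the set, with head means of 7.37 to 8.21 and carcass means of 2.69 to 5.26.

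AGAP000023 was also bright in several other organs. It averaged 11.004 in female and 11.47 in male heads, against 5.92 in female and 5.19 in male carcass, a difference of 5.69 (SE 0.25, adjusted p = 2.51e-12). The same probe read 10.76 in female and 8.73 in male salivary gland, 10.24 in female and 7.69 in male midgut and 10.47 in female and 11.18 in male Malpighian tubules, all tissues that were normalized separately. It was the only one of the 15 for which the part of the cluster list used here gives no cluster, while the other 14 were all members of the study's head cluster.

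The genes most enriched in carcass were led by AGAP003714. It read 2.91, 2.98, 3.09 and 2.98 in female heads and 2.98, 3.53, 2.98 and 3.16 in male heads. Carcass gave 9.14, 9.55, 10.04 and 10.43 in females and 12.65, 11.58, 12.64 and 12.95 in males. No head array detected it and every carcass array did, with males above females in carcass on all arrays. Head fell below carcass by 8.04 on the log2 scale (SE 0.36, adjusted p = 3.59e-12), at least 69.6-fold. AGAP001899 read 2.45 to 2.70 over all 8 head arrays, against 8.05, 7.86, 8.53 and 9.03 in female and 8.95 to 9.64 in male carcass, at least 14.3-fold lower in head. It was also measured in testis, at 8.13, and in Malpighian tubules, at 5.25 to 5.44.

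AGAP009871 and AGAP008311 were bright in carcass and weak to moderate in head. AGAP009871 averaged 3.64 ± 0.21 in female and 4.75 ± 0.34 in male heads, against 10.81 ± 0.51 in female and 9.50 ± 0.43 in male carcass (SD, n = 4 each), a difference of -5.96 (SE 0.35). No other dissected tissue but male salivary gland, at 5.17, rose above log2 5 for it. AGAP008311 averaged 8.37 ± 0.10 in female and 5.85 ± 0.18 in male heads, against 11.67 ± 0.33 and 12.77 ± 0.18 in female and male carcass, a difference of -5.11 (SE 0.46). The sexes were thus ordered oppositely in the tissues, with females above males in head and males above females in carcass, on all arrays.

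Among the other 11 carcass genes, 5 were brighter in the gut or the Malpighian tubules than in carcass. AGAP008647 was at the floor in nearly every head array, at 2.40 to 3.28, and averaged 8.26 in female and 4.91 in male carcass, but read 13.60 in the midgut of each sex and 13.42 to 13.71 in Malpighian tubules. AGAP003289 and AGAP006414 had the same order, with midgut levels of 11.19 to 11.73 and 13.31 to 13.81. AGAP007612 read 10.45 in female and 13.27 in male midgut, against 6.84 in female and 4.50 in male carcass. The summed level of 20 midgut markers in carcass, given below with the other tissues, was highest in a female array, and its part in these values was not tested. AGAP001561, which the study clustered with Malpighian tubules genes, read 3.03 and 2.80 in female and male heads, 6.53 and 5.86 in female and male carcass, and 8.74 in female Malpighian tubules.

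The remaining 6 genes were AGAP004437, AGAP004944, AGAP006452, AGAP011736, AGAP010039 and AGAP011603, with differences of -4.57 to -3.05, and all belonged to a carcass cluster of the study. AGAP010039 was abundant in both tissues, at 9.16 in female and 8.76 in male heads, against 11.23 in female and 13.19 in male carcass. AGAP006452 and AGAP011736 were not detected in head. In 5 of the 6, all but AGAP004437, the difference was larger in males, with a sex term that passed the test.

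**Figure D2:**
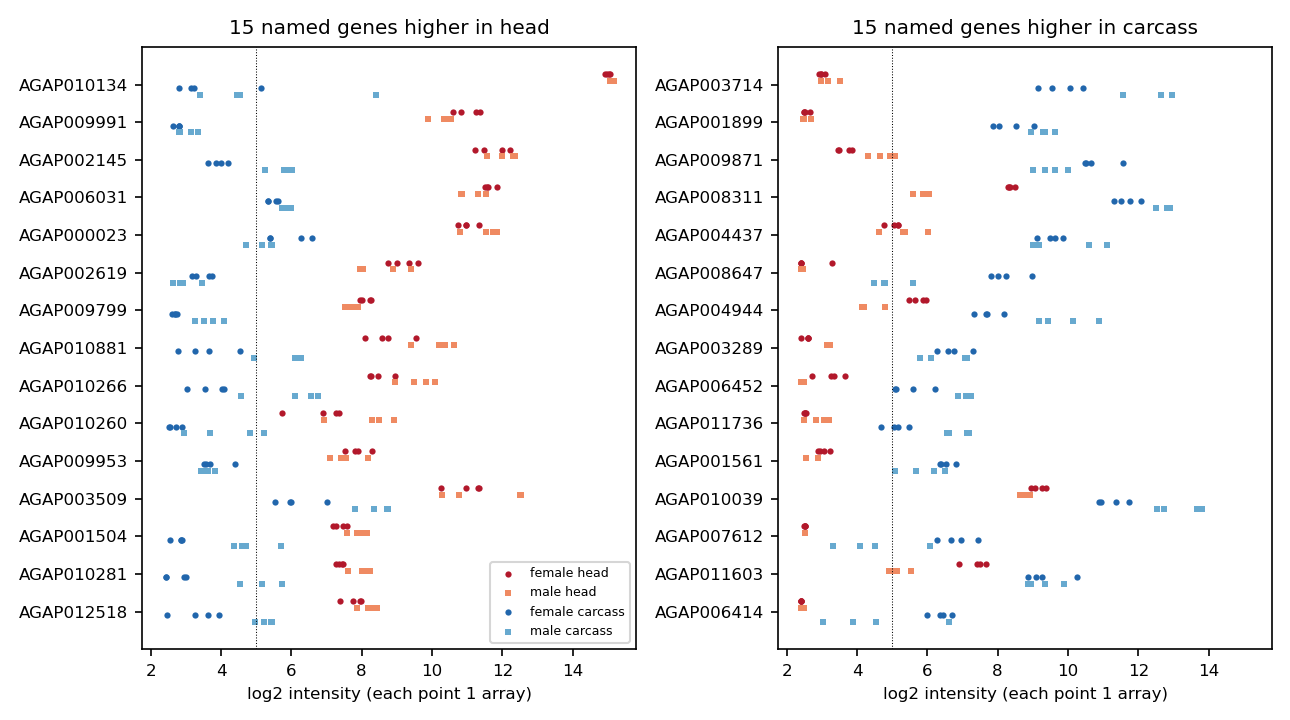
Log2 intensity of each array (horizontal axis, dotted line at the detection limit of log2 5) for the 15 genes most enriched in head (left) and in carcass (right), with female arrays as circles and male arrays as squares. Head arrays in red and carcass arrays in blue do not overlap for any gene, and the male carcass points lie right of the female ones for most head genes.

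The labels were also read against known markers of fat body and muscle, which both samples should hold. AGAP001826, the lipophorin precursor that carries lipid in the hemolymph and is made by the fat body, read 11.39, 12.46, 12.62 and 12.49 in female heads and 12.27, 10.71, 12.44 and 11.85 in male heads. Carcass gave 13.003, 12.86, 12.86 and 13.58 in females and 12.81, 12.10, 12.93 and 13.20 in males. It was abundant on every array, and the difference of -0.89 (SE 0.25, adjusted p = 0.00450) missed the limit of 1. AGAP010147, a muscle myosin heavy chain, read 5.52, 5.66, 5.10 and 6.30 in female heads and 6.83, 3.35, 6.39 and 4.75 in male heads. Carcass gave 5.45, 5.002, 6.17 and 7.30 in females and 8.28, 6.78, 9.002 and 8.94 in males. The female arrays overlapped between the tissues while 3 of 4 male carcass arrays lay above every head array. The pooled difference was -1.63 (SE 0.57, adjusted p = 0.0167), but it was -0.34 in females and -2.92 in males (sex term 2.58, adjusted p = 0.0600), and the call was lost without replicate 3 or replicate 4 of each group (adjusted p = 0.0676 and 0.0865). Markers of photoreceptors and neurons could not be read, since none of those on the lists could be joined to a probe.

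The study's own clusters of genes with like expression across tissues place the calls in broader groups. The study chose these clusters on the same arrays, so their direction is not independent evidence. Cluster A1 holds head genes and was annotated with phototransduction and signal transduction. Of its 49 genes tested, 46 were higher in head and 0 higher in carcass, with a median difference of 2.90, and in 40 the arrays did not overlap. The 3 not called, AGAP002015, AGAP010434 and AGAP002570, differed by 0.97, 0.71 and 0.63. Clusters A2 and A3 hold carcass genes and were annotated with metabolic process and cellular respiration, the mitochondrial oxidation of fuel. Of 66 A2 genes 0 were higher in head and 50 in carcass (median -1.47), and of 121 A3 genes 0 were higher in head and 96 in carcass (median -1.67). In A3 only AGAP002830 had a positive difference, of 0.93, which did not pass the test (adjusted p = 0.166).

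Genes of clusters built on other organs were called in both directions, except in A7, and their counts stand beside 11.8% higher in head and 30.0% higher in carcass over all 797 genes. The part of the cluster list used here placed no joined gene in the study's ovary clusters, so those are not covered. Of 100 genes of the Malpighian tubules cluster A5, 7 were higher in head and 18 in carcass. Of 34 midgut genes of A6, 7 (20.6%) were higher in head and 7 (20.6%) in carcass, while of 33 genes of A7, expressed in midgut and Malpighian tubules, 0 were higher in head and 15 (45.5%) in carcass. The salivary gland cluster A4 had 4 of 27 (14.8%) higher in head and 5 (18.5%) in carcass. Of 178 testis genes of A9, 17 (9.55%) were higher in head and 19 (10.7%) in carcass, with a median difference of 0.01. Cluster A8, for which no annotation is used here, had 1 of 26 higher in head and 3 in carcass, and of 163 genes for which the part of the cluster list used here gives no cluster, 12 were higher in head and 26 in carcass. Among organ-cluster genes higher in head, AGAP009798 of A6 had the largest difference, at 3.59, followed by AGAP005256 of A4 at 2.75 and AGAP008310 of A5 at 2.73, which were chosen here after their values were seen.

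**Figure D3:**
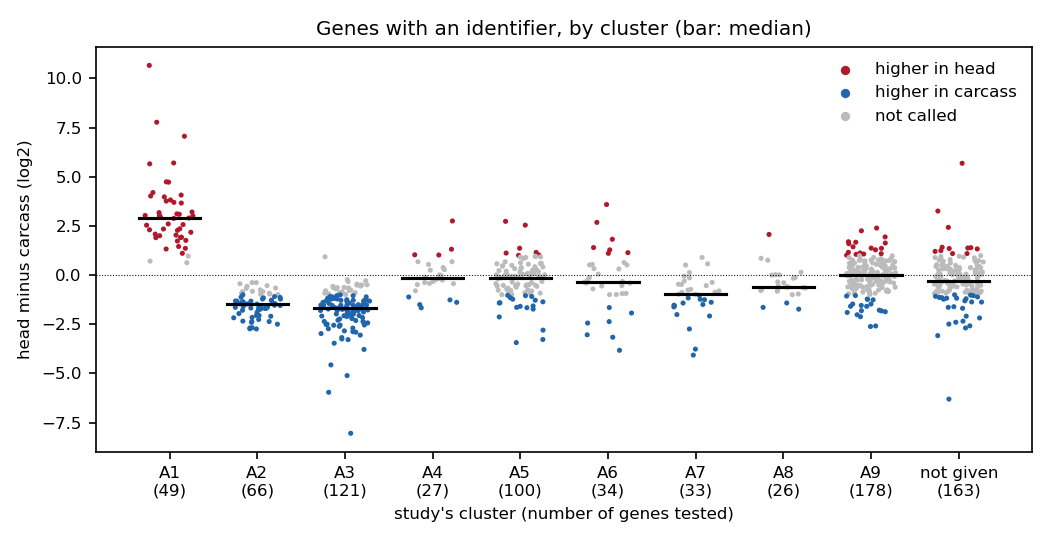
Difference of head minus carcass on the log2 scale (vertical axis) for the 797 genes with an identifier, by the study's cluster, each point a gene, coloured by its call, with a bar at the median. The medians are 2.90 in A1, -1.47 in A2 and -1.67 in A3, and between -0.97 and 0.01 in the other named clusters shown.

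The called probes were next followed into the tissues that the comparison did not use. Probes higher in head were detected elsewhere less widely than the rest. The midgut detected 39.6% of them, against 58.3% of the probes higher in carcass and 75.9% of those not called. The Malpighian tubules detected 43.3%, against 63.0% and 84.1%, and the ovary 38.1%, against 51.3% and 80.2%. Testis had the highest share of the head probes among the dissected organs, at 50.3%, against 65.3% of carcass probes and 82.1% of those not called. Salivary gland and accessory gland detected 41.0% and 39.9% of the head probes, against 69.4% and 54.1% of the carcass probes. In all, 229 head probes (31.2%) were found in no other dissected tissue, compared with 160 carcass probes (12.7%) and 111 probes not called (3.76%). In all 6 other tissues, 158 head probes (21.5%), 420 carcass probes (33.4%) and 1713 probes not called (58.0%) were detected. These shares are descriptions without a test, and probes called because a tissue was at the floor enter them too.

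The whole-body arrays recovered carcass transcripts more often than head transcripts. They detected 559 of the 734 head probes (76.2%), 1142 of the 1258 carcass probes (90.8%) and 2840 of the 2955 not called (96.1%). Of the 364 head probes that carcass lacked, 180 (49.5%) were in no other dissected tissue and 192 (52.7%) were detected in the whole body. Of the 484 carcass probes that head lacked, 133 (27.5%) were in no other dissected tissue and 374 (77.3%) in the whole body. A large part of the head probes that carcass lacked was thus below the limit in arrays of the whole mosquito. The share was not counted apart for those found in no other dissected tissue.

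**Figure D4:**
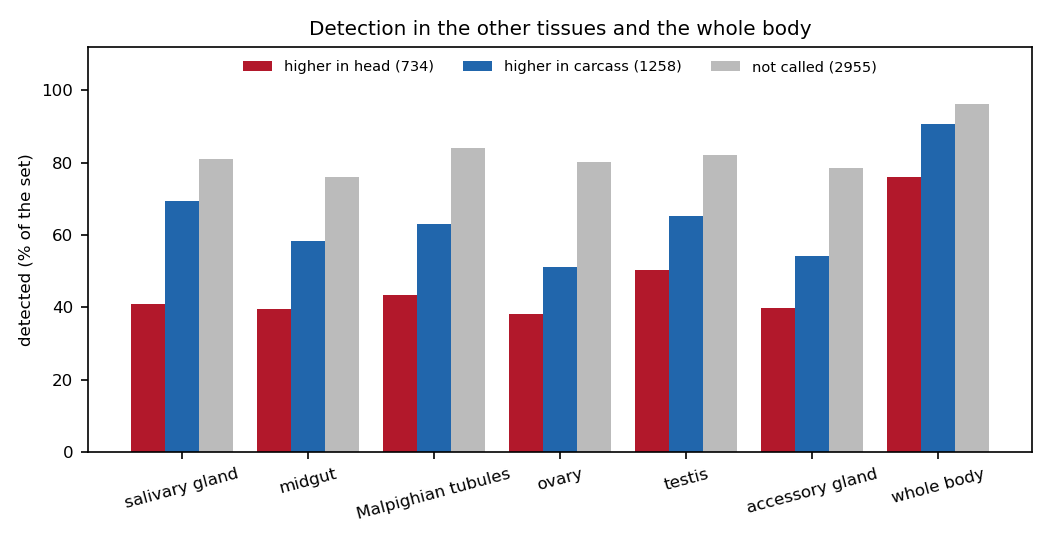
Share of probes detected (vertical axis, percent of the set) in 6 dissected tissues and the whole body, for the 734 probes higher in head, the 1258 higher in carcass and the 2955 not called. In every tissue the head set has the lowest share, at 38.1% to 50.3% in the dissected organs and 76.2% in the whole body.

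The dissection boundaries were checked with 20 marker probes for each other organ, chosen on the arrays of those organs alone. Summed over the salivary gland markers, linear intensity was 189, 251, 4135 and 4143 in female heads and 191 to 955 in male heads, against 178 to 700 in female and 217 to 584 in male carcass. The salivary glands themselves gave 268591 to 316913, so the signal was highest in replicates 3 and 4 of female head, and male heads 1 to 3, at 468, 955 and 638, also lay above the lowest head arrays. The midgut markers summed to 118 to 139 in female and 120 to 244 in male heads, against 3985, 732, 996 and 385 in female carcass and 208 to 470 in male carcass. The ovary markers summed to 118 to 161 in female heads and 111 to 124 in male heads, against 294, 508, 2943 and 599 in female carcass and 132 to 204 in male carcass. Testis markers summed to 605, 327, 409 and 517 in male heads, against 601, 149, 111 and 113 in male carcass, and to 119 to 123 in female heads and 111 to 115 in female carcass. Their sum was thus raised on all 4 male head arrays but on only replicate 1 of male carcass. Of the 20 testis markers, 1 was detected in male heads and 0 in male carcass, so the set as a whole was not raised above the limit. Accessory gland markers summed to 114 to 130 over all head arrays, against 596 in male carcass replicate 1 and 119 to 151 in the other carcass arrays. Few markers were detected well enough to be tested. Of the 4 midgut markers tested, 0 were higher in head and 4 in carcass, the 1 ovary marker tested was higher in carcass, the 1 testis marker was higher in head, and 0 of the 6 salivary gland markers were called. Malpighian tubules markers summed to 216 to 384 over the head arrays and 225 to 361 over the carcass arrays, and of the 4 tested 1 was higher in head and 2 in carcass. No accessory gland marker was tested. Without female head replicate 3 the counts were 744 higher in head and 1283 in carcass, and without replicate 4 they were 744 and 1267. Without female carcass replicate 1, highest for midgut markers, they were 744 and 1293, and without replicate 3, highest for ovary markers, 741 and 1271.

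Most probes called over both sexes were also called within each sex. Females alone gave 806 probes higher in head (16.3%) and 1195 in carcass (24.2%), and males alone 738 (14.9%) and 1361 (27.5%). Of the 734 head calls 604 (82.3%) were made within each sex by the group-means fit, as were 828 of the 1258 carcass calls (65.8%). The sexes were then compared directly, as the head minus carcass difference of females less that of males. This term reached 1 in either direction and passed the test for 924 probes (18.7%), of which 569 were positive and 355 negative. Among them were 134 of the head calls (18.3%), near the share of all probes. They also held 438 of the carcass calls (34.8%) and 352 of the probes not called (11.9%). Of the 924, 312 were called the same way in each sex, 239 in females only, 258 in males only, 105 in neither and 10 in opposite directions.

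Sex-dependent differences lay more often in the carcass than in the head. The gap between the sexes was wider in carcass than in head for 738 of the 924 (79.9%), and for 71.0% of all probes tested. The median gap was 0.42 in head and 1.49 in carcass for the 924, and 0.33 in head and 0.64 in carcass for all probes. Of the 569 positive probes, 545 were higher in male than in female carcass, and of the 355 negative probes, 327 were higher in female carcass. The direction of each term is fixed by the same values, so these counts describe where it came from and are not a test.

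**Figure D5:**
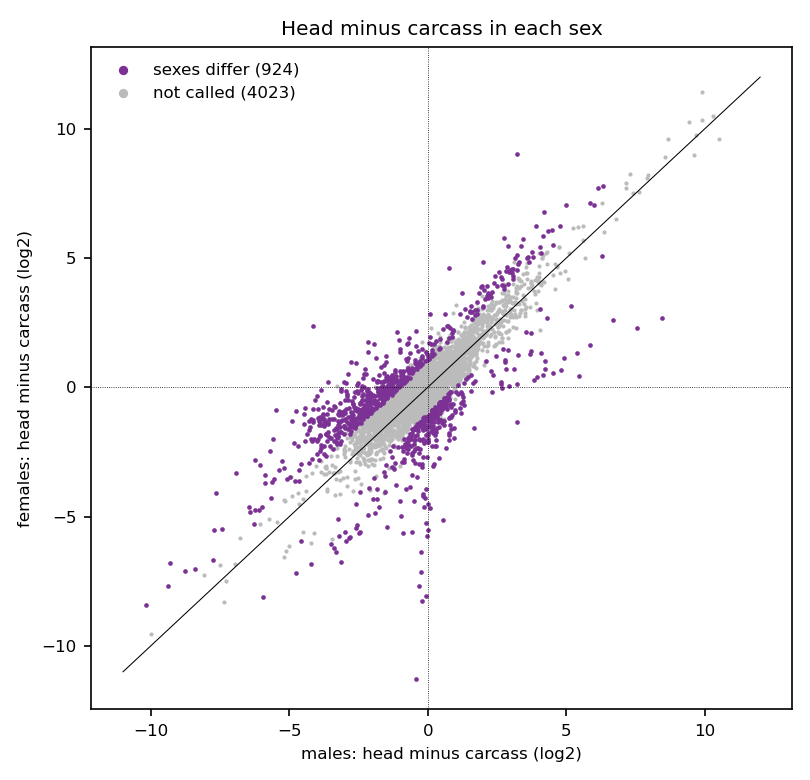
Difference of head minus carcass in females (vertical axis) against males (horizontal axis), both on the log2 scale, for the 4947 probes tested, with equal differences on the solid line. The 924 probes whose difference depended on sex are purple, and a column of them near 0 in males reaches -11.28 in females.

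Head-enriched transcripts were more often higher in the male carcass than in the female carcass. Over the 734 head probes the median level was 6.99 in female and 7.37 in male heads, and 4.30 in female and 5.03 in male carcass. Male carcass lay above female carcass for 579 of them (78.9%), against 60.3% of all probes tested, and male head above female head for 536 (73.0%), against 49.9%. In the whole body, which the comparison did not use, the male level was higher for 587 (80.0%), against 57.5% of all probes. The median whole-body level was 5.12 in females and 6.39 in males. In cluster A1 the male carcass was higher for 46 of 49 genes, at a median of 3.62 in female and 5.26 in male carcass, and the sex term passed for 13 genes, 12 of them positive. The genes AGAP002145, AGAP009799, AGAP001504, AGAP010281 and AGAP012518 were of this kind. AGAP010281 read 7.34, 7.46, 7.26 and 7.43 in female and 8.19, 7.62, 7.999 and 8.23 in male heads, against 2.94, 2.43, 2.44 and 3.003 in female and 5.15, 4.55, 5.18 and 5.74 in male carcass. Head exceeded carcass by 4.67 in females and 2.86 in males (sex term 1.81, SE 0.32, adjusted p = 4.63e-04).

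Carcass genes of the metabolic clusters also differed between the sexes. In A3 the term passed for 59 of 121 genes (48.8%), 55 of them positive. In A2 it passed for 24 of 66 (36.4%), 22 of them positive. The share was 18.7% over all probes and 34.8% over the probes higher in carcass, to which A2 is near. The A3 genes had a median level of 8.01 in female and 7.27 in male heads, against 9.37 in female and 9.68 in male carcass. The median difference was accordingly -1.17 in females and -2.01 in males. A2 genes had medians of 8.14 in female and 7.75 in male heads, against 9.33 and 10.15 in female and male carcass, and a median difference of -1.09 in females and -1.85 in males.

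The 5 genes with the largest positive terms all belonged to A3. AGAP008904 read 5.45, 5.25, 5.34 and 5.80 in female and 7.60, 6.33, 6.89 and 6.22 in male heads, against 3.28, 2.68, 3.30 and 3.11 in female and 10.31, 10.28, 11.29 and 11.74 in male carcass. It was higher in head than carcass in females, by 2.36, and lower in head in males, by 4.14 (sex term 6.51, SE 0.47, adjusted p = 3.84e-08). Its whole-body level was 2.70 in females and 10.12 in males. AGAP007249 averaged 7.96 in female and 5.23 in male heads, against 8.85 in female and 10.70 in male carcass (term 4.58, SE 0.38). AGAP009526 and AGAP001633 had the same form, with terms of 3.85 and 3.76, as did AGAP008311, described above, with 3.61. In these 4 genes female head exceeded male head while male carcass exceeded female carcass.

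The largest negative terms came from genes that were higher in female carcass. AGAP002830 read 10.13, 10.32, 10.08 and 10.08 in female and 9.89, 9.56, 9.54 and 10.28 in male heads, against 11.72, 11.44, 11.16 and 11.71 in female and 6.44, 5.75, 7.16 and 7.06 in male carcass. Head was 1.35 below carcass in females and 3.21 above it in males (term -4.57, SE 0.37, adjusted p = 1.71e-07), with the 2 tissues of males farther apart than those of females. AGAP000181 was detected in female carcass alone, at 7.98 ± 0.44, against 3.78 ± 0.59 and 3.05 ± 0.12 in female and male heads and 3.21 ± 0.36 in male carcass (SD, n = 4 each). AGAP006793 was at the head floor of 2.40 on all 8 head arrays, and averaged 6.34 in female and 3.18 in male carcass. AGAP008632 averaged 3.85 and 2.65 in female and male heads, against 9.25 in female and 4.11 in male carcass, and read 11.83 in female Malpighian tubules and 10.93 in female midgut. AGAP000570 read 6.996, 7.04, 6.62 and 4.23 in female carcass, and its midgut level was 12.89 in females and 11.49 in males.

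A small number of probes had a large tissue difference in one sex beside almost none in the other. In 28 probes head was at least 3 below carcass in females while males differed by less than 1. Their median level was 2.61 in female and 2.63 in male heads, against 7.97 in female and 3.15 in male carcass, and the largest difference was -11.28. The summed midgut and ovary markers were also higher in female carcass (385 to 3985 and 294 to 2943) than in male carcass (208 to 470 and 132 to 204), and their part in these probes was not tested. The 2 members with an identifier were bright in other organs, AGAP000181 at 10.30 in female Malpighian tubules and AGAP006793 at 11.14 in male midgut. In female midgut they read 7.04 and 6.85, and both read 2.38 in ovary. In 24 probes head was at least 3 below carcass in males alone. These had medians of 6.79 in female and 5.51 in male heads, against 7.60 in female and 9.37 in male carcass. All 4 medians lay above the detection limit, that of male heads only narrowly, and detection of the single probes was not counted. Head was at least 3 above carcass in males alone for 9 probes, with medians of 3.10 in female and 6.74 in male heads and 2.54 and 2.55 in female and male carcass, and in females alone for 1 probe. These counts were made after the values were seen.

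Calls were spread over all chromosome arms, as read from the probe identifiers. Head calls made up 14.0% of the 1070 probes tested on 2L, 14.3% of 1517 on 2R, 14.6% of 741 on 3L, 15.8% of 1036 on 3R and 15.3% of 340 on X, against 14.8% overall. Carcass calls made up 23.9% to 27.6% on the same arms, against 25.4% overall. The sex term passed for 15.0% of X probes, against 16.6% to 20.3% on the autosomal arms. A set of 243 probes on no assigned arm had 17.7% head and 21.4% carcass calls.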

How the data were processed

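The authors scanned the Affymetrix arrays, summarized them with GCRMA (version not given in the sources used here) and normalized each tissue across both sexes. The deposited values are linear intensities and were taken as log2 with no further normalization. Groups came from the titles. The authors' mismatch calls were not used. The log2 intensities of the 16 arrays were fitted with tissue and sex terms (lmFit and eBayes of limma 3.58.1, R 4.3.3), with a tissue by sex term in a second fit. Differences within a sex were contrasts of another fit, of the 4 group means over the same arrays. The Benjamini-Hochberg adjustment ran over all 4947 probes tested, and the fit was tested on simulated data. Python 3.11.15, pandas 2.3.3 and numpy 2.4.6 did the rest. The number of arrays limits the precision.

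No table pairing probes with genes was used, so gene lists written as names could not be applied and no sequence is shown. Instead, 1173 of 1352 genes with a relative abundance above 0 in at least 3 tissues, in the first 1998 rows of each of 2 supplementary tables, had exactly 1 probe within 0.0006 in every such tissue. When the values were shuffled among tissues 20 times, 4.15 genes matched on average. Of the identifiers on the lists, AGAP001826, AGAP010147 and AGAP005655 were joined, and AGAP005655 was not called (difference -0.57, adjusted p = 0.116). Named genes were the 15 largest called differences each way without overlap and the 5 largest sex terms each way, and the 2 probes without a gene identifier that had the largest difference each way are given by probe identifier. Members and lists were chosen with earlier results of these data known. The labels give 5 days and a blood meal for both sexes, and the paper a meal for females at an earlier age.

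Same-numbered arrays of head and carcass deviated together within a sex, at r = 0.153 to 0.499 in females and 0.134 to 0.600 in males for all 8 pairs. Differently numbered arrays gave -0.339 to 0.176 in females and -0.447 to 0.284 in males, so the ranges overlapped. The means were 0.254 for the same number and -0.084 for different numbers in females, and 0.270 and -0.083 in males. The numbers were taken to pair the tissues within a sex, although single pairs do not all stand out. Across sexes the correlations of same-numbered arrays were -0.217 to 0.153 between heads and 0.00623 to 0.398 between carcasses, so not every pair passed 0.1.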

Additional observations from a re-analysis of the deposited data

Results flagged for a closer look

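For 26 of the 46 named genes and probes the difference of head minus carcass depended on sex, by limma's tissue by sex term (females less males, log2). The term was positive, with head higher relative to carcass in females, for AGAP008904 (6.51), AGAP007249 (4.58), AGAP009526 (3.85), AGAP001633 (3.76), AGAP008311 (3.61) and AGAP004944 (3.59). It was also positive for AGAP003714 (2.49), AGAP006452 (2.41), AGAP010039 (2.36), AGAP011603 (2.13), AGAP010281 (1.81) and Ag.2R.402.0_CDS_a_at (1.77). Smaller positive terms were found for AGAP001504 (1.54), AGAP012518 (1.51), AGAP002145 (1.49), AGAP011736 (1.41) and AGAP009799 (1.38). The term was negative for AGAP002830 (-4.57), AGAP000181 (-4.04), AGAP008632 (-3.93), AGAP000570 (-3.24), AGAP006793 (-3.16), AGAP008647 (-3.15), AGAP009871 (-2.42), AGAP007612 (-2.34) and AGAP000023 (-1.20). Of these, 10 were named for their large sex term.

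Dixon's test picked out an array far from the rest of its group of 4 in 6 of 117 groups with a median at or above the detection limit, and chance gives about 1 in 20. The log2 values were 12.71 for Ag.2L.287.0_CDS_a_at and 11.39 for AGAP001826, both in female head replicate 1, 5.76 for AGAP007249 in male head replicate 4, 11.57 for AGAP009871 in female carcass replicate 1, 4.23 for AGAP000570 in female carcass replicate 4 and 4.93 for AGAP010881 in male carcass replicate 2.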

How the results depend on the processing

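With a log2 difference of at least 2 the calls were 380 higher in head, 427 higher in carcass and 267 dependent on sex. With no limit on size they were 1352, 2187 and 1231. Among the 3682 probes detected in both tissues, an alternative chosen after the data were seen, they were 370, 774 and 612. Leaving out 1 array, or 1 replicate number from every group, gave 720 to 797 probes higher in head, 1249 to 1382 higher in carcass and 778 to 1002 dependent on sex. With the replicate number as a block the counts were 735, 1258 and 970, and with the block within each sex, which fits the pairing and was added later, 736, 1256 and 1026. Of the calls, 733 of 734 and 1255 of 1258 remained with that block, and it changed no call of a named gene. No direction turned under any alternative, which included other detection limits, normalizations, variance models and probe classes. Among named genes the calls that changed were those of AGAP010147, AGAP001826 and AGAP005655. AGAP010147 lost its call in the separate fit to female arrays, without replicate 3 or 4 and at a difference of 2. AGAP001826 was called without replicate 3 (-1.06) and with no limit on size, and AGAP005655 in the separate fit to male arrays. The separate normalization of head and carcass limits statements on how many probes lay on either side, and values near log2 5 are set by the detection limit.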
